A study of Danio rerio with 697 samples.

Results

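The 3 somatostatin genes *sst1.1*, *sst1.2* and *sst2* and the secreted-factor gene *dkk3b* were followed across single cells sorted as beta cells from zebrafish larvae. These 4 genes, chosen by name and matched by identifier, are 4 of the 32520 genes in the count table. The question put to them was which paralogs share wells, how they relate to *ins* and *pdx1*, and at what level they stood in each treatment group. Each of the 693 wells with a group held 1 sorted cell. Control cells (Ctrl) came from *Tg(ins:Kaede)* larvae treated with capsaicin (csn) for 48 h from 3 to 5 dpf. The treated cells came from larvae carrying *Tg(ins:TRPV)* as well as *Tg(ins:Kaede)*, exposed to csn for 24 h from 4 to 5 dpf by the labels (CSN24) or for 48 h from 3 to 5 dpf (CSN48), whereas the text of the study starts both exposures at 3 dpf. The insulin promoter drives both the rat TRPV channel, which csn opens, and the green Kaede protein used for sorting, so that all groups carry Kaede and all received csn, controls included. Cells were taken as Kaede-positive and calcein-positive from pooled, dissected pancreata of 20 larvae per group by the design text. The methods of the study give a somewhat larger number of dissected pancreatic regions pooled per tube.

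Somatostatin is a peptide hormone of the islet delta cell that restrains the release of insulin and glucagon from neighbouring cells. Zebrafish carry several somatostatin genes. *sst1.2* and *sst2* are known as genes of the main delta-cell population, and *sst1.1* and *dkk3b* have been described together in zebrafish islet cells that also contain insulin. *dkk3b* encodes a secreted glycoprotein of the Dickkopf family, whose other members inhibit Wnt signalling. *ins* encodes preproinsulin, and *pdx1* a transcription factor of beta cells that some delta cells also use.

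On GRCz11, *sst1.1* (ENSDARG00000040799) lies on the plus strand of chromosome 15 from 36156986 to 36158851. *sst1.2* (ENSDARG00000033161) lies on the same strand of that chromosome from 36115955 to 36120277, and 36708 bases separate the end of the latter from the start of the former. *sst2* (ENSDARG00000014190) lies on the minus strand of chromosome 2 from 5726353 to 5728843, and *dkk3b* (ENSDARG00000070683) on the minus strand of chromosome 25 from 16132580 to 16146851. The counted exons span 693 bases of *sst1.1*, 968 of *sst1.2*, 539 of *sst2* and 1118 of *dkk3b*.

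Wells were kept where 200 genes or more were detected and the 13 protein-coding mitochondrial genes took 40% of the counts or less. Of the 650 wells this left, 26.3% were Ctrl, 23.1% CSN24 and 50.6% CSN48. The CSN48 wells came in 2 sets, set 1 with 19.4% and set 2 with 31.2% of the kept wells, and no source says what the sets are. *ins*, whose promoter drives the Kaede used for sorting, reached 10000 CPM in 524 of the 613 kept wells of 50000 counts or more. All 4 members had reads in these wells, and *dkk3b* failed a filter on detection in the 24-h ratio alone. Kept wells held 1486 to 1084018 counts on genes, with medians of 650959 in Ctrl, 506870.5 in CSN24 and 416209 in CSN48. Fewer than 50000 counts were found in 0 Ctrl, 2 CSN24, 18 set 1 and 17 set 2 wells. Ctrl was on plate 1, CSN24 on plate 2 and both CSN48 sets on plate 3, so that plate and treatment cannot be told apart. Each group was 1 sample (n = 1), and no test between groups was made. Intervals are at 95% and cover only the counting error of wells or, for pooled levels, of reads. Reads without molecular identifiers include PCR copies and do not count molecules. Intervals of pooled levels therefore cover neither the error in molecules nor the spread between wells. Levels are counts per 1000000 counts on genes (CPM). In these data fewer cells of a type and less RNA per cell cannot be told apart in a pooled level.

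The 3 somatostatin genes were each a main transcript in a minority of wells and stood far lower in most others, and the treated groups held more of the former than Ctrl did. A well was called high in a somatostatin gene at 10000 CPM or more, that is 1% of its counts. High wells of *sst1.1* numbered 6 in Ctrl, 15 in CSN24, 10 in CSN48 set 1 and 41 in set 2. These are shares of 3.51% (interval 1.30 to 7.48%), 10.0% (5.71 to 15.96%), 7.94% (3.87 to 14.1%) and 20.2% (14.9 to 26.4%). The sets thus differed in this share although both were on 1 plate and had the same treatment by their labels. These intervals describe the counting of wells within 1 pool and are no test between groups. Of the high wells of *sst1.1*, 3 in set 1 and 7 in set 2 had under 50000 counts, and 0 in Ctrl and CSN24. Without them 7 wells of set 1 and 34 of set 2 were high.

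High wells of *sst1.2* made up 2.92% of Ctrl (5 wells, interval 0.956 to 6.69%), 14.7% of CSN24 (22 wells, 9.43 to 21.4%), 13.5% of set 1 (17 wells, 8.06 to 20.7%) and 13.3% of set 2 (27 wells, 8.95 to 18.8%). High wells of *sst2* made up 3.51% of Ctrl (6 wells, 1.30 to 7.48%), 12.0% of CSN24 (18 wells, 7.27 to 18.3%), 15.1% of set 1 (19 wells, 9.33 to 22.5%) and 14.3% of set 2 (29 wells, 9.78 to 19.9%). For these 2 genes the shares in CSN24 and both CSN48 sets lay close together. In wells of 50000 counts or more, a limit added after seeing the data, high wells of *sst2* were 12.0% of set 1 (13 wells, interval 6.57 to 19.7%) and 11.3% of set 2 (21 wells, 7.13 to 16.7%).

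**Figure D1:**
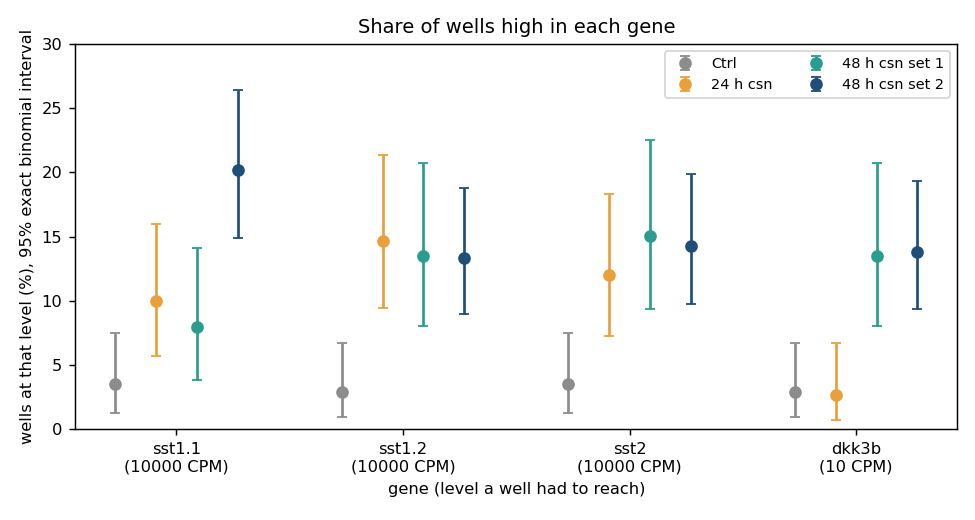
Share of kept wells (%) at 10000 CPM or more of *sst1.1*, *sst1.2* or *sst2* and at 10 CPM or more of *dkk3b*, with exact binomial 95% intervals as bars, for Ctrl, CSN24, CSN48 set 1 and CSN48 set 2. *sst1.1* stood at 20.2% in set 2 and 7.94% in set 1, and *dkk3b* at 2.67% in CSN24 and 13.5 and 13.8% in the CSN48 sets.

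The limit of 10000 CPM did not lie in a gap: 26 wells of *sst1.1* lay within 3-fold below it and 17 within 3-fold above it, with 27 and 20 wells for *sst1.2* and 21 and 15 for *sst2*. The 3 lowest *sst1.1* values inside it were 10117, 10492 and 10846 CPM, and the 3 highest outside were 9687, 9679 and 9080 CPM. For *sst2* the lowest value inside was 11141 CPM and the highest outside 7655 CPM, and for *sst1.2* they were 10713 and 9245 CPM. Between 1000 and 10000 CPM lay 50 wells for *sst1.1*, 56 for *sst1.2* and 44 for *sst2*.

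Single wells spanned 6 orders of magnitude on the CPM scale, as the plot of wells by group shows. *sst1.1* ran from 0 CPM through a median of 18.8 to 301434 CPM in Ctrl. Its lowest, median and highest values were 0, 37.3 and 318247 CPM in CSN24, 0, 80.1 and 242894 CPM in set 1, and 0, 125.3 and 532135 CPM in set 2. *sst2* reached the highest level of the 4 genes, 795761 CPM in a CSN24 well, against 462114 CPM in Ctrl, 605767 CPM in set 1 and 613565 CPM in set 2, with medians of 76.2, 40.3, 136.3 and 137.5 CPM in the same order. *sst1.2* peaked at 137990 CPM in Ctrl, 143060 CPM in CSN24, 118505 CPM in set 1 and 191930 CPM in set 2. The ranges of all groups overlapped for each gene, and the groups differed in how many wells stood at the top.

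**Figure D2:**
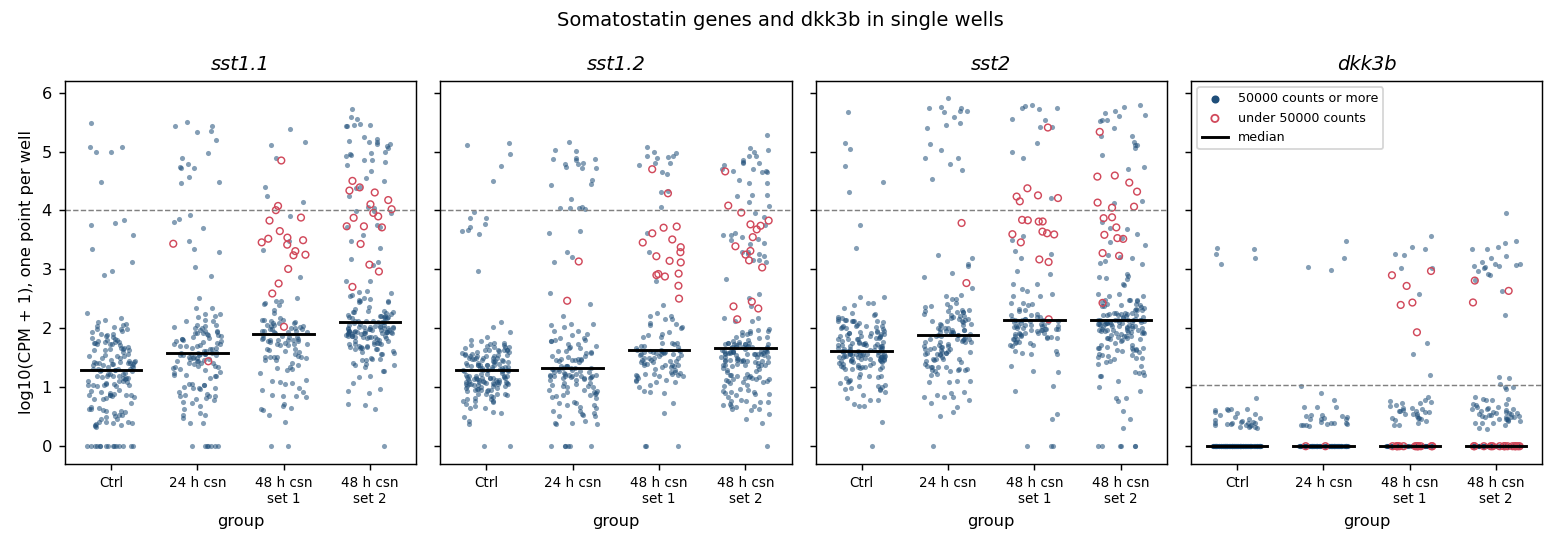
log10(CPM + 1) of *sst1.1*, *sst1.2*, *sst2* and *dkk3b* in each kept well of the 4 sets, with medians as bars, the level used to call a well high as a dashed line (10000 CPM, or 10 CPM for *dkk3b*) and wells under 50000 counts as open circles. Somatostatin genes form a dense band near their medians of 18.8 to 137.5 CPM and a sparse upper group. Many open circles lie between them, and 10 for *sst1.1*, 4 for *sst1.2* and 14 for *sst2* lie above the dashed line. *dkk3b* has a gap between traces and values near 1000 CPM in Ctrl and CSN24, while 11 CSN48 wells lie between 10 and 300 CPM.

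As pooled levels, all reads of a group over all its counts, *sst1.1* stood at 4258 CPM in Ctrl (interval 4246 to 4271), 13126 CPM in CSN24 (13100 to 13152), 6400 CPM in set 1 (6377 to 6422) and 28067 CPM in set 2 (28033 to 28102). *sst1.2* stood at 2331 CPM in Ctrl, 6795 in CSN24, 7034 in set 1 and 6687 in set 2. *sst2* stood at 3723, 29434, 30652 and 21224 CPM in the same order. Few wells carried these sums: the top 17 Ctrl wells held 99.5% of the *sst1.1* reads and 98.9% of the *sst2* reads, and a single Ctrl well held 53.2% of the *sst2* reads. In treated sets the top well held 12.0 to 36.7% of the *sst1.1* reads and 9.46 to 17.03% of the *sst2* reads. Per kilobase of exon, *sst2* led in CSN24 with 54608 CPM against 18941 for *sst1.1* and 7020 for *sst1.2*, whereas *sst1.1* and *sst2* were close in set 2, at 40501 and 39376 CPM per kilobase.

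The log2 ratio of the pooled level, CSN24 over Ctrl with 1 CPM added, was 1.62 for *sst1.1*, 1.54 for *sst1.2*, 2.98 for *sst2* and -0.45 for *dkk3b*. For CSN48 over Ctrl it was 2.26, 1.55, 2.72 and 1.92 in that order. These comparisons share the Ctrl wells. Of the 1131 genes found in 25% of the wells of either group, 15.2% were higher 2-fold or more at 24 h and 21.9% lower. At 48 h, 18.8% of 1260 such genes were higher and 15.4% lower. The 3 somatostatin genes were among those higher at both times, and so was *dkk3b* at 48 h, but *dkk3b* entered the 48-h comparison only through CSN48, where it was found in 36.8% of wells against 21.1% in Ctrl, and nothing is read from that call. Markers of other cells moved too: both matched alpha-cell markers were higher at 24 h and 48 h. Of 7 iridophore markers 2 were compared at 24 h, with 0 higher and 1 lower, and 4 at 48 h, with 4 higher. Those compared only at 48 h entered through CSN48, and nothing is read from that count. The part of these alpha-cell and iridophore markers in the ratios was not tested. At 24 h *dkk3b* was found in too few wells to be counted there, 21.1% of Ctrl and 19.3% of CSN24. With the ratio of *sst2*, 1.68% of the genes stood higher at 24 h and 4.68% at 48 h. With those of *sst1.1* it was 7.69 and 5.87%, and with those of *sst1.2* 8.31 and 10.6%. The median log2 ratio of all these genes was 0.07 at 24 h and 0.08 at 48 h.

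Set by set the 48-h ratio of *sst1.1* was the least even. It was 0.59 in set 1, below the 2-fold mark, and 2.72 in set 2. Set 1 had 26.3% of its 1434 genes 2-fold or more above Ctrl and 20.2% below, and set 2 had 17.4% of 1231 above and 18.4% below. *sst2* reached 3.04 in set 1 and 2.51 in set 2, *sst1.2* 1.59 and 1.52, and *dkk3b* 1.43 and 2.13. Of the 30 wells of 50000 counts or more in which at least 3 of 7 iridophore markers had 10 or more reads, 24 were in set 1 and 6 in set 2, and none was high in a somatostatin gene. *ins* had log2 ratios in the pool of 0.16 at 24 h and -0.19 at 48 h, the latter made up of -0.40 in set 1 and -0.08 in set 2, with a median per well of 58998 CPM in set 1 and 111141 CPM in Ctrl, and *pdx1* with 0.33 and 0.01. Without the well with the most reads in each group, the *sst2* ratio moved from 2.98 to 3.87 at 24 h and from 2.72 to 3.70 at 48 h, and its direction held.

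**Figure D3:**
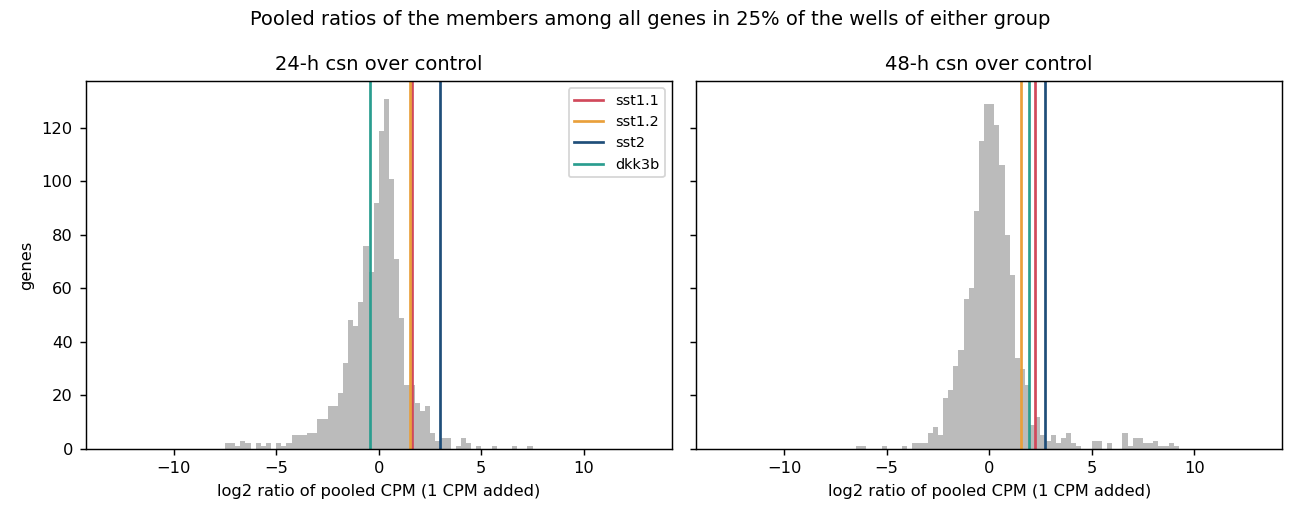
Number of genes (bars, 0.25 wide) by log2 ratio of pooled CPM with 1 CPM added, for CSN24 over Ctrl (1131 genes) and CSN48 over Ctrl (1260 genes), with the 4 members as lines. *sst2* lies farthest to the right of the members at both times (2.98 and 2.72), and *dkk3b* moves from -0.45 to 1.92.

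At the limit of 10000 CPM *sst1.2* and *sst2* mostly shared wells, and *sst1.1* was high without either in 44 of its 72 wells. Of all kept wells, 72 were high in *sst1.1*, 71 in *sst1.2* and 72 in *sst2*, and 523 in none of them. *sst1.2* and *sst2* were high together in 60 wells, which is 84.5% of the *sst1.2* wells and 83.3% of the *sst2* wells. *sst1.1* and *sst2* were high together in 19 wells, 26.4% of each list, and *sst1.1* and *sst1.2* in 25 wells, 34.7% and 35.2% of theirs. Of all 650 kept wells a smaller share was high in *sst2* (72 wells) or *sst1.2* (71 wells) than among the *sst1.1* wells. The largest classes were *sst1.1* alone with 44 wells and *sst1.2* with *sst2* but not *sst1.1*, also with 44. All 3 genes were high in 16 wells, *sst1.1* with *sst1.2* in 9, *sst2* alone in 9, *sst1.1* with *sst2* in 3 and *sst1.2* alone in 2. How far *sst1.1* and *sst1.2* stood apart depended on the limit. At 1000 CPM they shared 87 wells, 71.3% and 68.5% of their lists. *sst1.2* and *sst2* then shared 92 wells, 72.4% and 79.3% of theirs, and *sst1.1* and *sst2* 60 wells, 49.2% and 51.7%.

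The classes were filled unevenly between groups. Of the Ctrl wells, 5 were high in *sst1.1* alone, 4 in *sst1.2* and *sst2*, 1 in all 3 genes and 1 in *sst2* alone. In CSN24, 9 were high in *sst1.1* alone, 16 in *sst1.2* and *sst2*, 4 in *sst1.1* and *sst1.2* and 2 in all 3. Set 1 held 3 wells of *sst1.1* alone and 10 of *sst1.2* and *sst2*, and set 2 held 27 and 14. Wells high in all 3 genes numbered 5 in set 1 and 8 in set 2.

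Rank correlation over all kept wells of a set gave the same order of pairs in all 4 sets. Spearman's rho of *sst1.2* with *sst2* was 0.58 in Ctrl, 0.81 in CSN24, 0.75 in set 1 and 0.76 in set 2, over the kept wells of each. For *sst1.1* with *sst1.2* it was 0.50, 0.15, 0.56 and 0.59, and for *sst1.1* with *sst2* 0.20, 0.05, 0.41 and 0.41. Wells of a set share a plate and each well its total, so these values are descriptions. In wells of 50000 counts or more the last pair fell to 0.23 in set 1 and 0.36 in set 2.

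Reads of a paralog did not always come with reads of the others. One well held 78170 *sst2* reads and 0 *sst1.1* reads, and another 21165 *sst1.1* reads and 0 *sst1.2* reads. In the 62 wells of 50000 counts or more that were high in *sst1.1*, the median well had 1843 *sst2* reads and 36276 *sst1.2* reads per 1000000 *sst1.1* reads. In the 58 such wells high in *sst2*, no well had fewer than 1564 *sst1.2* reads per 1000000 *sst2* reads. How reads that fit more than 1 position were counted is not given in the sources used here.

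Wells of few counts held intermediate levels of all 3 genes. Of the 37 wells under 50000 counts, 10 were high in *sst1.1*, 4 in *sst1.2* and 14 in *sst2*, all of them in CSN48. The 37 wells had medians of 4466 CPM of *sst1.1*, 1957 of *sst1.2*, 6504 of *sst2* and 64293 of *ins*. Their reads were few, with medians of 31, 12 and 43 reads for the 3 somatostatin genes. In the 613 wells of 50000 counts or more, *sst1.2* and *sst2* were high together in 56 wells, 96.6% of the 58 *sst2* wells and 83.6% of the 67 *sst1.2* wells. *sst1.1* and *sst2* were high together in 13 of them, 20.97% and 22.4% of their lists. The wells are described further at this depth.

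**Figure D4:**
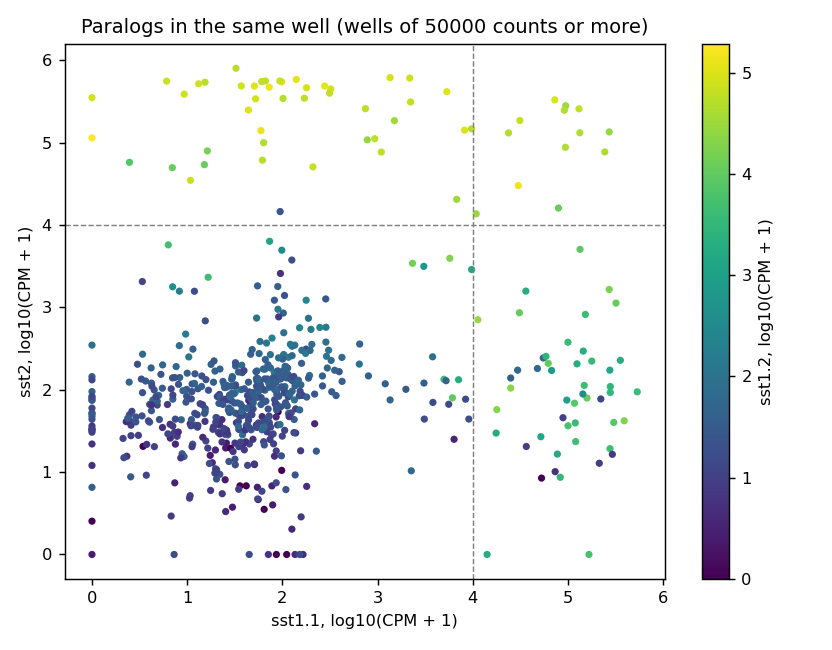
*sst2* against *sst1.1* as log10(CPM + 1) in the 613 wells of 50000 counts or more, coloured by *sst1.2*, with dashed lines at 10000 CPM. Of the wells above the horizontal line, 45 lie left of the vertical line and 13 right of it, nearly all with high *sst1.2*, while the 49 wells at lower right have *sst1.2* from 0 to 29383 CPM with a median of 2854 CPM.

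By *sst1.1* and *sst2* alone these 613 wells fell into 49 high in *sst1.1* only, 13 high in both, 45 high in *sst2* only and 506 high in neither. *sst1.2* was not used to form these classes. In the 45 *sst2* wells it had a median of 67118 CPM (quartiles 51692 and 85197) and was high in 43 wells. In the 13 wells with both genes the median was 45511 CPM, and all 13 were high. The 49 *sst1.1* wells stood between these and the rest, with a median *sst1.2* level of 2854 CPM (quartiles 694 and 5972), 35 wells at 1000 CPM or more and 9 at 10000 CPM or more. In the 506 other wells the median was 21.7 CPM, and 9 of them reached 1000 CPM.

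By the class rule, *sst2* in the *sst1.1* wells and *sst1.1* in the *sst2* wells lay below the limit for a high well. Wells high in both genes were set apart by the same rule. The rule did not fix how far below the limit the other gene stood. In the *sst1.1* wells *sst2* had a median of 91.5 CPM, close to the 71.8 CPM of wells high in neither, and 4 of the 49 wells reached 1000 CPM. In the *sst2* wells *sst1.1* had a median of 92.9 CPM against 42.5 CPM in wells high in neither, and 9 of the 45 reached 1000 CPM. Per kilobase of exon the median *sst1.1* well held 168365 CPM of *sst1.1*, and the median *sst2* well 636629 CPM of *sst2* and 69336 CPM of *sst1.2*. Of the 107 wells of the first 3 classes, *sst2* was the leading paralog per kilobase in 52, *sst1.1* in 51 and *sst1.2* in 4.

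*ins* and *pdx1* differed between these classes. The *sst1.1* wells had a median *ins* level of 50481 CPM (quartiles 30177 and 76532), and 44 of the 49 reached 10000 CPM (89.8%, interval 77.8 to 96.6%). The *sst2* wells had a median of 2403 CPM (quartiles 664 and 38581), and 19 of the 45 reached 10000 CPM (42.2%, 27.7 to 57.8%). Wells with both genes had a median of 24700 CPM, with 10 of 13 at 10000 CPM or more. Wells high in neither had a median of 118644 CPM, and 451 of 506 reached 10000 CPM (89.1%, 86.1 to 91.7%).

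Among the *sst2* wells *ins* took 2 levels with a gap between them, noticed in the data. In 23 wells it lay between 338 and 2403 CPM, and in the other 22 between 8555 and 141639 CPM. The 30 wells with iridophore markers, whose cell type was not tested, held 198.6 to 1824 CPM of *ins* with a median of 615 CPM. The lower *sst2* wells had a median of 664 CPM, near that median, and the highest of them, at 2403 CPM, lay above that range. The source of the *ins* reads in either was not tested. In the 23 lower *sst2* wells *sst2* had a median of 484479 CPM and *pdx1* of 23.1 CPM, against 126154 CPM and 1285 CPM in the 22 wells with more *ins*.

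CPM divides by a total that the hormone itself swells, so *ins* was also taken as a share of the counts outside the 3 somatostatin genes and *ins*. On that scale the median was 6.04 per 100 such counts in *sst1.1* wells (quartiles 3.32 and 10.4), 4.71 in wells with both genes, 0.81 in *sst2* wells and 13.5 in the rest. The order of the classes was the same as for CPM. Somatostatin reads outnumbered *ins* reads in 39 of the 49 *sst1.1* wells, 13 of the 13 wells with both genes, 40 of the 45 *sst2* wells and 2 of the 506 others. As a share of all counts, the somatostatin genes together stood at a median of 12.3% in *sst1.1* wells, 30.97% in wells with both and 40.3% in *sst2* wells, and 84.7% in the highest *sst2* well.

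*pdx1* also lay at 2 levels across wells: 243 of the 613 wells were under 100 CPM, 13 between 100 and 500 CPM and 357 at 500 CPM or more. Wells with iridophore markers had 2.37 to 69.6 CPM. The median was 3489 CPM in *sst1.1* wells (quartiles 784 and 6982), and 36 of 49 reached 1000 CPM (73.5%, interval 58.9 to 85.1%). It was 1993 CPM in wells with both genes, 9 of 13 at 1000 CPM or more, and 45.8 CPM in *sst2* wells, of which 11 of 45 did (24.4%, 12.9 to 39.5%). In wells high in neither the median was 2970 CPM and 289 of 506 reached 1000 CPM (57.1%, 52.7 to 61.5%). *ins* at 10000 CPM and *pdx1* at 1000 CPM or more stood together in 32 of the 49 *sst1.1* wells, 8 of the 13 with both, 11 of the 45 *sst2* wells and 284 of the 506 others. A further 10 of the *sst1.1* wells combined *ins* at 10000 CPM or more with *pdx1* under 100 CPM, as did 30.6% of the wells high in neither.

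**Figure D5:**
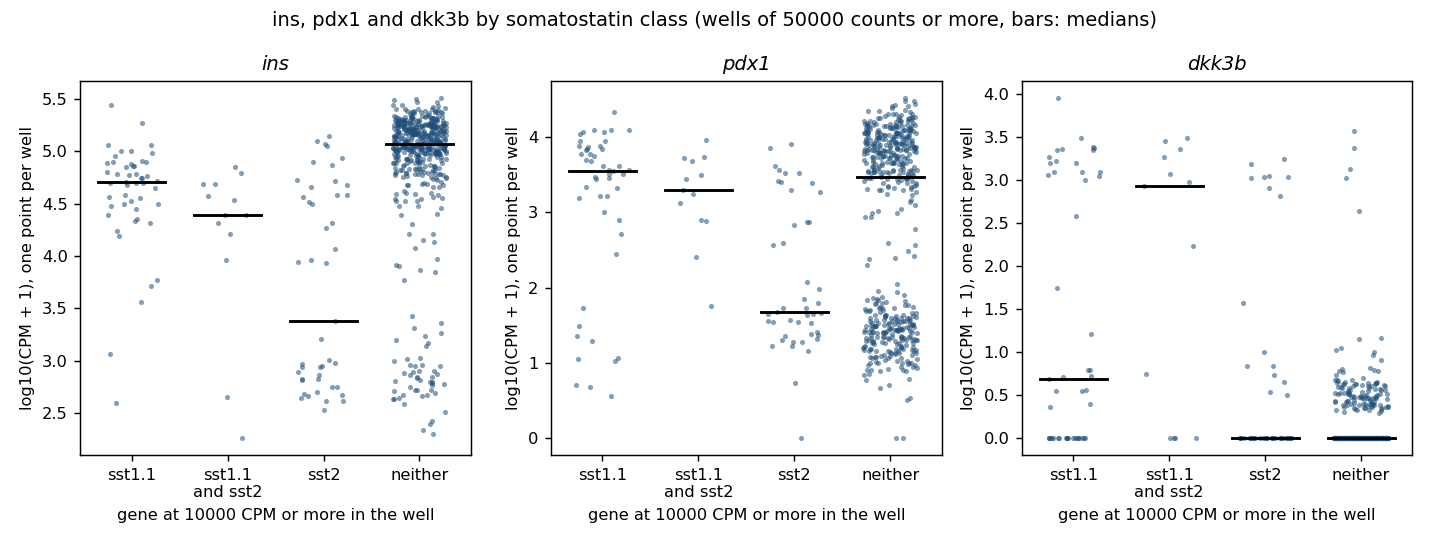
*ins*, *pdx1* and *dkk3b* as log10(CPM + 1) in the 613 wells of 50000 counts or more, by which of *sst1.1* and *sst2* reached 10000 CPM (49, 13, 45 and 506 wells from left to right), with medians as bars. *ins* and *pdx1* medians are lowest in *sst2* wells (2403 and 45.8 CPM), and *dkk3b* stands near 1000 CPM in part of the first 3 classes.

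The contrast between *sst1.1* and *sst2* wells was seen group by group where there were wells to compare. The median *ins* level was 60523 CPM in the 5 *sst1.1* wells and 18404 CPM in the 5 *sst2* wells of Ctrl, with overlapping ranges of 3660 to 274424 CPM and 664 to 85609 CPM. It was 38403 CPM in 13 and 890 CPM in 16 wells of CSN24, 25218 CPM in 4 and 5395 CPM in 10 wells of set 1, and 55053 CPM in 27 and 11524 CPM in 14 wells of set 2. The ranges overlapped in every set. *pdx1* medians in the same order were 2107 and 1834 CPM in Ctrl, 3599 and 39.2 CPM in CSN24, 3892 and 64.8 CPM in set 1, and 3604 and 48.7 CPM in set 2. In Ctrl the *pdx1* medians of both classes lay close together, over 5 wells each, and the ranges overlapped.

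Over all kept wells, without regard to the other paralogs, high wells of each somatostatin gene had less *ins* than the other wells. The median *ins* level was 49702 CPM in the 72 *sst1.1* wells against 108297 CPM in the other 578, 20744 CPM against 108007 for *sst1.2* and 25879 CPM against 108297 for *sst2*. *pdx1* was 2869 CPM in *sst1.1* wells against 2260 CPM elsewhere, 735 against 2837 for *sst1.2* and 747 against 2861 for *sst2*. The direction for *sst1.1* was not that of Ctrl, where *pdx1* was 2597 CPM in high wells against 3090 CPM in the others. It was 3599 against 735 CPM in CSN24, 2779 against 677 CPM in set 1 and 2756 against 2501 CPM in set 2. In wells of 50000 counts or more the *pdx1* medians fell to 390.5 CPM for *sst1.2* and 106.1 CPM for *sst2*, and the *ins* median of *sst2* wells was 10496 CPM. Across wells of a set rho with *ins* was -0.35 to 0.04 for *sst1.1*, -0.51 to -0.03 for *sst1.2* and -0.35 to -0.05 for *sst2*. With *pdx1* rho was -0.15 to 0.29 for *sst1.1*, -0.10 to 0.24 for *sst1.2* and -0.07 to 0.19 for *sst2*. Ranks within sets thus did not follow the lower pooled *pdx1* medians of *sst1.2* and *sst2* wells.

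Other hormones stood in some of these wells. *gcga*, a glucagon precursor gene of alpha cells, reached 10000 CPM in 12 of the 45 *sst2* wells, 2 of the 13 with both genes, 1 of the 49 *sst1.1* wells and 12 of the 506 others. In those 12 *sst2* wells it ran from 23137 to 182948 CPM, and in the other 33 from 1.58 to 803 CPM. The matched marker gene of PYY cells reached 10000 CPM in 2 *sst1.1* wells, 1 *sst2* well, 0 wells with both genes and 32 others. That of epsilon cells reached it in 1 *sst1.1* well, at 19956 CPM, and in 0 wells of the other classes. *hhex*, a transcription factor gene known from mouse delta cells, was at 10 CPM or more in 15 of the 45 *sst2* wells, 6 of the 13 with both, 7 of the 49 *sst1.1* wells and 1 of the 506 others. Of the summed markers of other cell types, the 7 acinar genes had a median of 0 CPM in all 4 classes, as did the 3 hepatocyte, 2 erythrocyte and 2 macrophage genes, although single wells were high, up to 10907 CPM of acinar genes in an *sst1.1* well and 114850 CPM of hepatocyte genes in an *sst2* well. The 7 iridophore genes had medians of 7.61 to 17.8 CPM. No doublet caller was run. Wells with both *sst1.1* and *sst2* had a median of 404454 counts and 1363 detected genes, against 486013 counts and 1185 genes in *sst1.1* wells, 354910 and 1160 in *sst2* wells, and 526440 and 1214 in the rest. The part of doublets in wells with several hormones was not tested.

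*dkk3b* was absent or a trace in most wells and near 1000 CPM in a few, with values between these in CSN48. Over all kept wells it had 0 reads in 464, more than 0 but under 10 CPM in 20.3% of the wells, 10 to 300 CPM in 11 and 300 CPM or more in 43. In a well of the median depth, 0 reads allow up to 6.12 CPM. The values nearest to the limit of 10 CPM were 9.48 CPM outside and 10.3 CPM inside, and the median of the 54 wells inside was 1102 CPM. The 5 Ctrl wells at 10 CPM or more had 1226, 1532, 1836, 2213 and 2347 CPM. The 4 CSN24 wells had 985, 1089, 1580 and 3069 CPM. Levels in both groups thus overlapped, and all were far from the traces. The 17 wells of set 1 ran from 15.1 to 3730 CPM with a median of 795 CPM, and the 28 wells of set 2 from 10.3 to 8902 CPM with a median of 1119 CPM.

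Their share was 2.92% in Ctrl (interval 0.956 to 6.69%), 2.67% in CSN24 (0.731 to 6.69%), 13.5% in set 1 (8.06 to 20.7%) and 13.8% in set 2 (9.37 to 19.3%). The shares in both CSN48 sets were close to each other, as were those in Ctrl and CSN24. Of the set 1 wells 6, and of the set 2 wells 3, had under 50000 counts, and without them the shares were 10.2% (11 wells, 5.20 to 17.5%) and 13.4% (25 wells, 8.89 to 19.2%). By 1 or more reads the shares were 21.1, 19.3, 37.3 and 36.5% in the order Ctrl, CSN24, set 1 and set 2. After each well was thinned to 50000 counts they were 2.92, 5.41, 15.7 and 18.8%, which left out the 37 wells under that depth. Pooled *dkk3b* stood at 47.5 CPM in Ctrl (interval 46.2 to 48.8), 34.5 in CSN24 (33.2 to 35.8), 129.6 in set 1 (126.4 to 132.9) and 211.5 in set 2 (208.5 to 214.6), and 28.5% of the set 2 reads were in 1 well.

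*dkk3b* wells were mostly somatostatin wells. Over all kept wells, 32 of the 54 were high in *sst1.1* and 23 in *sst2*, but in set 1 it was 9 and 11 of 17. These counts include 9 wells under 50000 counts, 6 of them in set 1, in which 1 read of *dkk3b* is enough to reach 10 CPM. Of the 45 wells of 50000 counts or more with *dkk3b* at 10 CPM or more, 37 were high in at least 1 somatostatin gene. By class, it reached 10 CPM in 20 of the 49 *sst1.1* wells (40.8%, interval 26.997 to 55.8%), 8 of the 13 wells with both genes (61.5%, 31.6 to 86.1%), 9 of the 45 *sst2* wells (20.0%, 9.58 to 34.6%) and 8 of the 506 others (1.58%, 0.685 to 3.09%). In the *sst1.1* wells of single groups the counts were 3 of 5 in Ctrl, 2 of 13 in CSN24, 4 of 4 in set 1 and 11 of 27 in set 2. CSN24 thus had *sst1.1* wells without a matching number of *dkk3b* wells.

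Among *sst1.1* wells those with and without *dkk3b* had similar medians of *ins* and *pdx1*. The median *ins* level was 51234 CPM in the 20 wells with it and 50481 CPM in the 29 without, and *pdx1* was 3389 and 3489 CPM. *sst1.1* itself was 99719 and 118946 CPM, and *sst1.2* 3675 and 1937 CPM. In the *sst2* class the 9 wells with *dkk3b* had a median of 1020 CPM of *ins* and 52.5 CPM of *pdx1*, and the 36 without it 5479 and 44.5 CPM. In the *sst1.1* and *sst2* classes all these quartile ranges overlapped. Of the wells high in both genes, the 8 with *dkk3b* had medians of 22722 CPM of *ins* and 1532 CPM of *pdx1*. The 5 without it had 49220 and 4800 CPM. Their *pdx1* quartiles, 657 to 2184 CPM and 3087 to 5246 CPM, did not overlap, over few wells. Wells with *dkk3b* had more detected genes, with medians of 1434.5 against 1101 in the *sst1.1* class, 1479.5 against 1034 in wells with both genes and 1676 against 1129.5 in the *sst2* class, and the part of doublets in this was not tested. Across all kept wells rho of *dkk3b* with *sst1.1* was 0.34 in Ctrl, 0.16 in CSN24, 0.36 in set 1 and 0.33 in set 2. With *sst2* it ran from -0.06 to 0.23, with *ins* from -0.20 to 0.03 and with *pdx1* from -0.08 to 0.21.

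The 8 *dkk3b* wells without a high somatostatin gene were of several kinds. Close to the limit were a Ctrl well with 2347 CPM of *dkk3b*, 6099 of *sst1.1* and 9245 of *sst1.2*, and a set 2 well with 1041 CPM of *dkk3b* and 9687 of *sst1.1*. A further 2 carried glucagon, with 3730 CPM of *dkk3b* and 190045 of *gcga* in set 1 and 1341 and 154317 CPM in set 2. Of the other 4, all in set 2, 3 had 10.3, 13.2 and 13.7 CPM of *dkk3b* and 1 had 435 CPM in a well with iridophore markers and 465 CPM of *ins*.

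Traces of the somatostatin genes were nearly universal. *sst1.1* had at least 1 read in 91.2% of Ctrl wells, 95.3% of CSN24, 98.4% of set 1 and 99.5% of set 2, and *sst2* in 99.4, 99.3, 97.6 and 97.04%. In wells of 50000 counts or more with neither a somatostatin gene at 1000 CPM nor iridophore markers, *sst1.1* had medians of 15.7 CPM in Ctrl, 32.7 in CSN24, 63.8 in set 1 and 81.5 in set 2. *sst2* had 39.4, 57.9, 102.9 and 98.997 CPM there, and *sst1.2* 16.1, 14.8, 34.996 and 27.4 CPM. *dkk3b* had a median of 0 CPM in each. The 30 wells with iridophore markers, all of CSN48, held *sst1.1* at 3.04 to 263 CPM with a median of 30.96 CPM, *sst1.2* at a median of 27.3 CPM and *sst2* at 86.9 CPM. Within set 1 the medians were 63.8 CPM of *sst1.1* in the former wells and 30.96 CPM in the 24 with iridophore markers, and 102.9 and 93.9 CPM of *sst2*. The source of the traces was not tested.

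Genes were ranked by the mean of their 4 within-set rho to each member, over the 1860 genes found in 10% of the wells of every set. For *sst1.1* the most alike were *sst1.2* (mean rho 0.45), *dkk3b* (0.30), *sst2* (0.27), *gnrh2* (0.26), which encodes a gonadotropin-releasing hormone, and *calm3b* (0.23), a calmodulin gene. The next were *sumo3b*, *ptges3l*, *txnl4a*, *PDCD4* and *ptp4a2a*, at 0.20 to 0.22. For *sst2* they were *sst1.2* (0.73), *nppal* (0.36), of the natriuretic peptide family, *nmba* (0.30), a neuromedin B gene, and *KCNJ2* (0.29), of the inward rectifier potassium channels. Then followed *sst1.1*, *carhsp1*, *gcgb*, *STMN1*, *gcga* and *zgc:101731*, at 0.22 to 0.27. Names in capitals are as the name table gives them. *sst1.2* shared 8 of its 10 with *sst2*, the members themselves included, and 2 with *sst1.1*.

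For *sst1.2* the 10 were *sst2* (0.73), *sst1.1* (0.45), *gcgb* (0.31), *STMN1* (0.30), *nppal* (0.30), *gcga* (0.29), *KCNJ2* (0.28), *carhsp1* (0.28), *nmba* (0.27) and *dkk3b* (0.24). For *dkk3b* the values were lower, with *sst1.1* at 0.30, *sst1.2* at 0.24 and *gnrh2* at 0.20, followed by *CALU*, *GPI*, *si:dkeyp-9d4.3*, *rtn4a*, *sumo3b*, *ube2d1b* and *si:ch211-276i12.9* at 0.17 to 0.19. Single sets could differ in sign from these means. *nppal* with *sst1.2* was -0.05 in Ctrl and 0.35 to 0.46 in the other sets, and *dkk3b* with *sst1.2* was -0.05 in CSN24 and 0.23 to 0.41 in the others. The median mean rho over all genes was 0.03 to 0.04 for each member, and 5% of the genes exceeded 0.11 for *dkk3b* and 0.14 for each somatostatin gene. Over wells of 50000 counts or more 7 of the 10 genes of *sst1.1*, 10 of *sst1.2*, 7 of *sst2* and 9 of *dkk3b* were the same. The list of *sst1.1* lost *calm3b*, *ptges3l* and *PDCD4*, that of *sst2* lost *gcgb*, *gcga* and *zgc:101731*, and that of *dkk3b* lost *sumo3b*. *gcgb* and *gcga* stayed in the list of *sst1.2*, which then shared 6 of its 10 with *sst2*.

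Other genes of the somatostatin family and the somatostatin receptor genes were found in few of these wells. Of the somatostatin family list 5 of 8 symbols were matched, and besides the 3 members *sst6* had 0 reads over all kept wells, which allows up to 0.00929 CPM, and *sst7* was at 0.01 CPM in set 2 and 0.03 CPM in CSN24. Of the 7 receptor genes 6 were matched and 0 of them was found in 25% of the wells of a group. Of the 12 Dickkopf and Wnt genes, 1 entered the 24-h comparison and 2 the 48-h comparison, with 0 past 2-fold at 24 h and 1 higher at 48 h, *dkk3b* itself, which entered only through CSN48. Of the prohormone processing genes 6 of 9 were compared, with 0 higher and 2 lower at 24 h and 0 in either direction at 48 h. These counts stand beside 15.2% of all genes higher and 21.9% lower at 24 h and 18.8 and 15.4% at 48 h, and with so few genes nothing is read from them. Of the islet transcription factors 7 of 19 were compared, with 2 higher and 1 lower at 24 h and 1 higher and 0 lower at 48 h, beside the same shares of all genes.

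In the pathway lists, which leave out the cell type markers such as *gcga*, no gene outside the members had an absolute mean rho above 0.18 over all kept wells. Taking each gene with the member it was most alike to, the highest absolute mean rho were 0.18 for *chga*, a granule protein gene, with *sst1.1*, 0.18 for the transcription factor gene *insm1a* with *sst2*, 0.16 for *cpe*, a processing enzyme gene, with *sst1.1*, 0.14 for *scg2b*, a secretogranin gene, with *sst1.1*, and 0.14 for the transcription factor gene *isl1* with *sst1.2*. Of all genes compared, 5% exceeded 0.14 for each somatostatin gene, and *chga*, *insm1a* and *cpe* lay above that level. For *insm1a* the 4 sets gave 0.16, 0.12, 0.16 and 0.26, and for *scg2b* 0.19, 0.33, -0.01 and 0.03, so that the highest values of *scg2b* were in Ctrl and CSN24.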

How the data were processed

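Single sorted cells were profiled with Smart-seq2, 1 per well. By the methods and the submitters' processing notes, the authors mapped trimmed reads to GRCz11 (GSNAP, 2019-06-10) and assigned them to Ensembl genes (featureCounts 2.0.1). The deposited values are these raw counts per gene and well, not normalized, with 92 spike-in rows that were left out of all totals. Of 32520 genes, 29201 have a symbol in the name table, and 76 of the 93 listed symbols were matched.

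Wells were grouped by GEO's labels. Of 693 wells with a group, 173 were Ctrl, 154 CSN24, 143 CSN48 set 1 and 223 set 2, and 4 wells without one entered no comparison. Wells were kept with at least 200 genes and at most 40% of counts on 13 mitochondrial genes, which left 171, 150, 126 and 203, or 171, 148, 108 and 186 of 50000 counts or more. Counts were divided by the well total (CPM). Intervals at 95% are Clopper-Pearson for shares and exact Poisson for pooled counts, and a count of 0 allows 3 counts. No test between groups was made, because wells of 1 pool are not replicates. Ratios had 1 CPM added, over genes found in 25% of the wells of either group. Thinning used 50000 counts. Genes named are the members, *ins*, *pdx1*, the 10 genes most alike to each member and at most 5 listed genes. *hhex* and *gcga* come from the marker lists. Members, lists and limits were chosen with earlier results of these data known. The limit of 50000 counts in the report, the wells with iridophore markers left out and the gap in *ins* were chosen after seeing the data. The ratio and rank procedures were tested on simulated data. For the ratio, all simulated wells of a group had the same gene proportions. That simulation does not cover genes carried by few wells, such as the somatostatin genes. Scripts ran on Python 3.11.15 with scipy 1.17.1, pandas 2.3.3 and numpy 2.4.6, and figures on matplotlib 3.10.9.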

Additional observations from a re-analysis of the deposited data

Results flagged for a closer look

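Reads of the somatostatin genes were present in the 4 wells that no label places in a group. The well labelled NC, with 3617 counts, held 46 reads of *sst1.1*, 38 of *sst1.2* and 83 of *sst2*, together with 314 of *ins* and 13 of *pdx1*. The 3 wells labelled RNA held 11, 14 and 67 reads of these genes on plate 1, 14, 14 and 39 on plate 2, and 42, 14 and 70 on plate 3, in totals of 60608, 45492 and 48071 counts. *dkk3b* had 0 reads in each, which allows up to 829 CPM in the NC well and 49.5, 65.9 and 62.4 CPM in the others. These values were above the 3 counts that a count of 0 allows, and what the labels NC and RNA stand for is not given in the sources used here. In the NC well the reads came to 12718 CPM of *sst1.1*, 10506 of *sst1.2*, 22947 of *sst2* and 86812 of *ins*, beside medians of 4466, 1957, 6504 and 64293 CPM in the 37 kept wells under 50000 counts.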

How the results depend on the processing

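No ratio changed sign under any alternative. Taking the mean of the wells' CPM gave log2 ratios at 24 h of 1.50 for *sst1.1*, 1.42 for *sst1.2*, 2.95 for *sst2* and -0.25 for *dkk3b*, and at 48 h of 1.95, 1.49, 2.70 and 1.67. Totals without the 37 mitochondrial genes gave 1.69, 1.61 and 3.05 for the somatostatin genes at 24 h and, with *dkk3b*, 2.36, 1.64, 2.82 and 2.02 at 48 h. With no limit on wells they were 1.62, 1.53 and 2.97 at 24 h and 2.15, 1.43, 2.61 and 1.81 at 48 h. Without the well with the most reads they were 1.99, 1.74, 3.87 and -0.64 at 24 h and 2.74, 1.89, 3.70 and 2.04 at 48 h. Adding 10 CPM moved *dkk3b* to -0.37 and 1.74. Without set 1 the 48-h ratios were 2.72, 1.52, 2.51 and 2.13, and without set 2 they were 0.59, 1.59, 3.04 and 1.43.

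At 1000 CPM, high wells numbered 12, 24 and 25 for *sst1.1* in Ctrl, CSN24 and set 1, 13, 29 and 57 for *sst1.2* in Ctrl, set 1 and set 2, and 35 and 50 for *sst2* in sets 1 and 2. At 50000 CPM they numbered 5 and 26 for *sst1.1* in sets 1 and 2, and 13, 11 and 11 for *sst1.2* in CSN24, set 1 and set 2. Over all kept wells, those high in *sst1.2* and *sst2* numbered 92 at 1000 CPM and 37 at 50000 CPM. Those high in *sst1.1* and *sst2* numbered 60 and 8, and in *sst1.1* and *sst1.2* 87 and 2. With a total free of somatostatin and *ins* counts, the median *ins* level of *sst1.1* wells was 60962 CPM. In wells of 50000 counts or more the *pdx1* median was 390.5 CPM in *sst1.2* wells and 106.1 CPM in *sst2* wells, against 735 and 747 CPM, and the *ins* median of *sst2* wells 10496 against 25879 CPM. Wells with *dkk3b* fell from 36, 29, 47 and 74 with 1 read to 5, 8, 17 and 35 after thinning, to 5, 4, 17 and 28 at 10 CPM, and to 5, 4, 11 and 25 at 10 CPM with 50000 counts. With genes found in 10% of wells, 24.4% were higher and 30.7% lower at 24 h, and 28.5 and 20.1% at 48 h. Under 89 alternatives the result stayed within its interval or, for counts, within 1.5 times, and under 76 it moved beyond that. The *pdx1* and *ins* medians given above for wells of 50000 counts or more are among these 89. No paired analysis was possible because each group is 1 sample. With 1 sample per group, no interval here covers the spread between animals.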
